A study of Mus musculus with 3 samples.

Results

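Bidirectional promoter long non-coding RNAs (lncRNAs) are transcripts that start at the promoter of a protein-coding gene and run away from it on the opposite strand. The annotation used for the deposited data, GENCODE M21, gave this biotype to 327 transcripts of 214 mouse genes. Of these 214 genes, 60 reached 0.5 TPM in the gene table of every one of the 3 libraries, and these 60 are described here. TPM, the standard transcript abundance unit, is an RNA level divided by transcript length and scaled to the same total in every library. Of the 60 genes, 50 carry the bidirectional label for the gene as a whole and 10 are typed as processed_transcript while holding at least 1 bidirectional transcript. The TPM itself chose the 60 genes, so their levels are a description and were not tested.

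The RNA came from macrophages derived from C57BL/6J mouse bone marrow, which are primary phagocytes grown in culture. Per the labels, Lipid A had been added at 100 ng/ml 10 min before. It is the membrane anchor of bacterial lipopolysaccharide that is sensed by the receptor TLR4. RNA of the chromatin fraction was sequenced after removal of ribosomal RNA, so transcripts still attached to their template weigh more than in whole-cell RNA. The design held 1 group of 3 libraries, labelled biological replicates 1, 2 and 3, which were made from 1 µg, 250 ng and 500 ng of RNA. The labels give all 3 the same donor entry and do not give the age or sex of the animals, so the spread between libraries may be technical in part. RNA amount and replicate cannot be told apart. No untreated library was used here, so a level says nothing about induction by Lipid A.

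RNA polymerase II often initiates in both directions from one promoter region, especially where the DNA is rich in CpG and lacks a TATA box. The transcript that runs away from the gene usually meets early polyadenylation signals and few U1 snRNP binding sites, ends soon, and is degraded by the nuclear RNA exosome, which is guided by the NEXT and PAXT adaptor complexes. Annotated bidirectional lncRNAs are those that are long or stable enough to have been recorded as transcripts. Chromatin-fraction RNA is a preparation in which short-lived RNAs of this kind are easier to see.

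The libraries held between 14386725 and 16005795 estimated counts on 55536 annotated genes. All 10 macrophage markers checked were detected, meaning at least 1 TPM in every library, and their summed TPM was 936 to 1817. Of 30 markers of T and B lymphocytes, mast cells, neutrophils, fibroblasts and erythroid cells, 1 was detected in the gene tables. It was the erythropoietin receptor gene Epor, at a TPM of 1.40 to 3.74, and the 30 together summed to 3.62 to 6.29. In the second transcript tables, Cd8a (mean TPM 3.21), Cxcr2 (2.29), Cpa3 (1.52), Mpo (1.26), Kit (1.24) and Col1a1 (1.16) also had a mean above 1. The rest of the 30, besides Epor, stayed below 1 there. Xist, the X-inactivation RNA, had a TPM of 755 to 1134 and its antisense partner Tsix 0.0400 to 0.0600, which describes how reads from a locus with transcripts on both strands were assigned in these files. RNAs of 200 bases or more held 72.4%, 51.1% and 47.7% of all TPM in replicates 1, 2 and 3. The TPM of any longer RNA is scaled by that share. Of the 60 lncRNAs, 49 had their lowest TPM in replicate 3, and the same count over all genes was not made. The median TPM of protein-coding genes with 0.5 TPM or more in every library was also lowest there (12.3, 10.2 and 8.46). The part of the scaling in this order was not tested.

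The share of bidirectional lncRNA genes that reached the selection level was 28.0%, beside 27.5% of all 55536 annotated genes, 49.7% of protein-coding genes, 29.6% of antisense genes and 7.52% of lincRNA genes. The lncRNAs just inside the level were Gm26512, with a lowest TPM of 0.52, 9530018F02Rik with 0.59 and 6330408M09Rik with 0.64. Just outside it were AC138790.1 with a lowest TPM of 0.49, Gm47962 with 0.48 and 5430400D12Rik with 0.47. Gm47962 had a TPM of 1.68, 1.69 and 0.480 in replicates 1, 2 and 3, so a single library kept it out. Among the 154 genes below the level, 59 had 0 counts in all 3 libraries. With 0 counted reads, up to 3 counts remain possible, equal to 0.191, 0.187 and 0.209 CPM (counts scaled by library size) in replicates 1, 2 and 3, for counting error only.

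The 60 lncRNAs had low levels with a long upper tail. Their median TPM was 2.17, 1.98 and 1.60 in replicates 1, 2 and 3, or 1.92 ± 0.289 (SD, n = 3). It was 3.18 in the second transcript tables and 3.41 with TPM rescaled without RNAs under 200 bases. The protein-coding genes that passed the same level had medians of 12.3, 10.2 and 8.46. The lowest library stood at a TPM of 1 or more in 42 of the 60, at 2 or more in 17, at 5 or more in 3 and at 10 or more in 2. All 60 together held 8095, 8754 and 6198 estimated counts, which was 0.0516%, 0.0547% and 0.0431% of the annotated counts. A930037H05Rik and 4632427E13Rik alone held 51.5%, 49.4% and 50.4% of them. The mean count per library had a median of 44.1 over the 60 genes and ran from 3.00 to 2423, with 14 genes at 100 or more and 6 under 10. In a bulk sample such a low level in all cells and a higher level in few cells cannot be told apart.

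**Figure D1:**
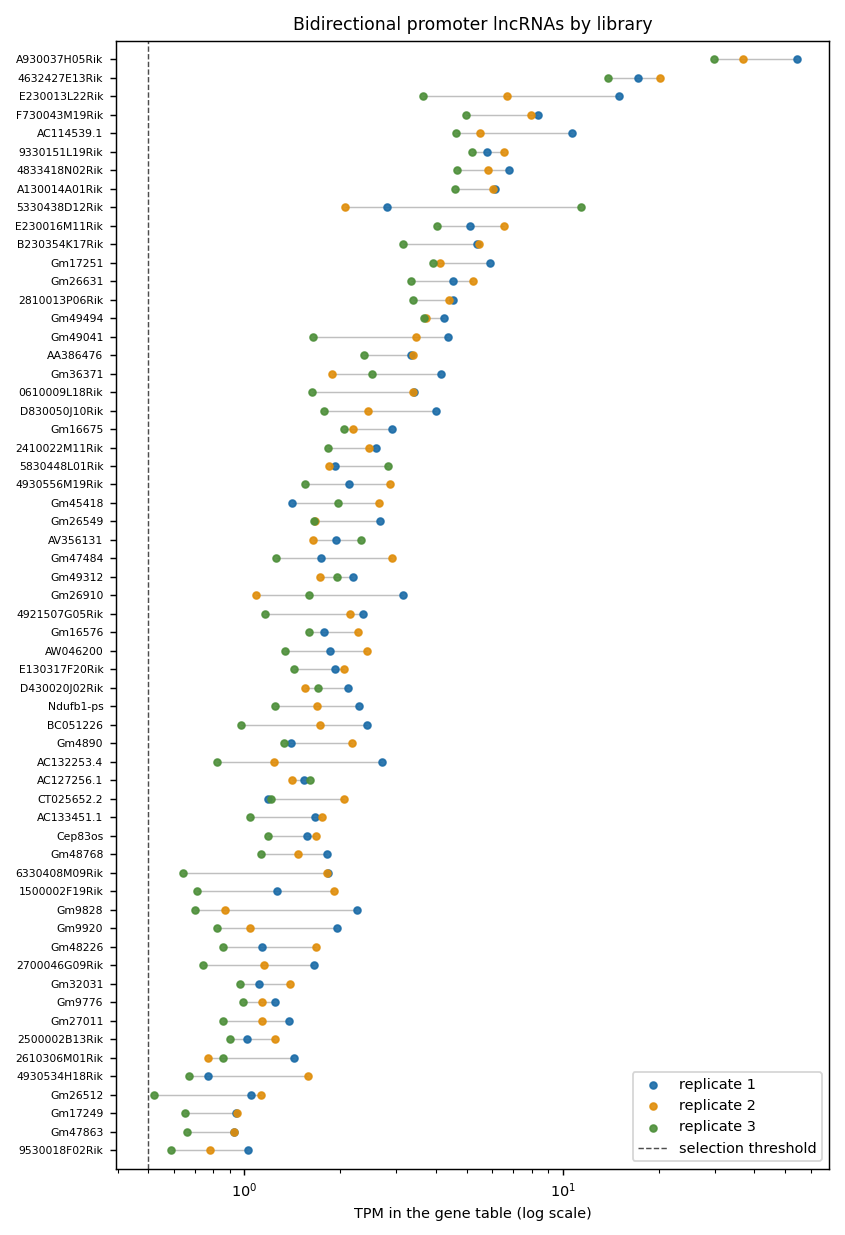
Each row is 1 of the 60 lncRNAs, each point its TPM in 1 library on a log axis, and the dashed line the selection level of 0.5 TPM. In these gene-table values A930037H05Rik and 4632427E13Rik stand above all others in every library, and 42 of the 60 have no library below a TPM of 1.

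Nearly all of the 60 lncRNAs started close to a protein-coding gene of the opposite strand. The partner was taken as the protein-coding gene on the opposite strand whose annotated start lay nearest, within 2000 bases. By the outermost starts of the genes, 59 of 60 had such a partner, each a different gene, at a median distance of 165 bases and a range of 19 to 1360. In 33 pairs the starts diverged with a gap between them and in 26 the genes overlapped head to head. By the nearest pair of annotated transcript starts all 60 had a partner, the median distance was 127 bases (4 to 1036), 54 lay within 300 bases and 46 diverged with a gap. The exception by gene starts was 5330438D12Rik, whose bidirectional transcript faces Cnot2, a subunit of the CCR4-NOT deadenylase, with starts overlapping by 147 bases. The 154 genes below the level had a median of 152 bases by gene starts (144 genes) and 119 by transcript starts (150 genes). These distances describe the annotation and not the libraries.

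**Figure D2:**
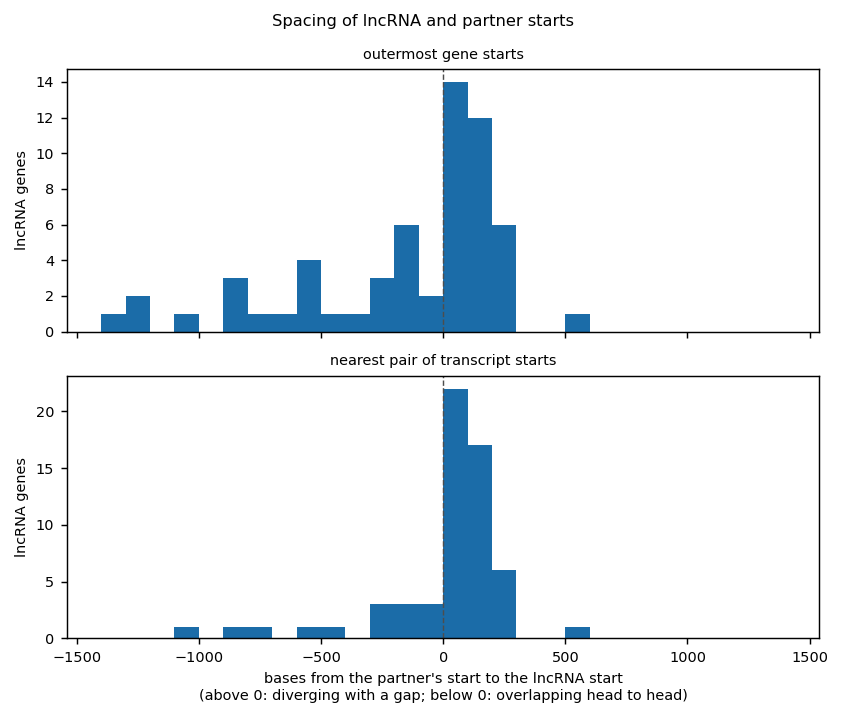
The histograms give the number of lncRNA genes by the signed distance in bases from the start of the partner to the start of the lncRNA, for gene starts (top, 59 genes) and the nearest transcript starts (bottom, 60 genes). Values above 0 are diverging starts with a gap and values below 0 overlapping starts, and with transcript starts 46 of 60 lie above 0.

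The promoters themselves are printed for 7 pairs, chosen after the values were seen, to show the DNA around the start of the lncRNA. RefSeq promoter windows of GRCm38.p6, the mm10 build, run from 250 bases before to 50 after a start and matched 33 of the 60 lncRNAs by symbol. In 30 of these the RefSeq start lay within 150 bases of an annotated start of the gene, and these windows were used. Each line below reads 5′ to 3′ on the strand of the lncRNA and stops where an annotated exon of a protein-coding gene begins. Capitals mark matches to 8 motifs searched on both strands: TATAAA (the TATA box), CCAAT (bound by NF-Y), GGGCGG (bound by Sp factors), CCGGAAG (bound by ETS factors), the palindromic NRF1 motif, TGACTCA (bound by AP-1), TGACGTCA (bound by CREB and ATF factors) and a kappaB site, the motif of NF-kB. Overlapping matches were kept.
A930037H05Rik: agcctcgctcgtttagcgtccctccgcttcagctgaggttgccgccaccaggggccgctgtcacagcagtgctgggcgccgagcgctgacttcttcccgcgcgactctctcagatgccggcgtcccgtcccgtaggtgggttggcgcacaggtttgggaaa
4632427E13Rik: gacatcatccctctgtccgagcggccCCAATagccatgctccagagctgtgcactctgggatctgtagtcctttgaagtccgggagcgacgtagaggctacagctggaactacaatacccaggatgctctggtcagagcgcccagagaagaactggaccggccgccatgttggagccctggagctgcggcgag
2810013P06Rik: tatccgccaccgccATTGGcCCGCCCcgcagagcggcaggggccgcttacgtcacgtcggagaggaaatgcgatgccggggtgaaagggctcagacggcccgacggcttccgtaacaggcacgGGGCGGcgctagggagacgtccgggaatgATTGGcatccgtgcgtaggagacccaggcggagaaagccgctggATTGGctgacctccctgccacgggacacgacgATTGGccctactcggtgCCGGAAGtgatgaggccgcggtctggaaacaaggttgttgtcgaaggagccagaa
B230354K17Rik: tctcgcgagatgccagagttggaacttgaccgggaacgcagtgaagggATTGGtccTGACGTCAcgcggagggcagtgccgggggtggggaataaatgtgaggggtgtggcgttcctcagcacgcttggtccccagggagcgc
Gm16675: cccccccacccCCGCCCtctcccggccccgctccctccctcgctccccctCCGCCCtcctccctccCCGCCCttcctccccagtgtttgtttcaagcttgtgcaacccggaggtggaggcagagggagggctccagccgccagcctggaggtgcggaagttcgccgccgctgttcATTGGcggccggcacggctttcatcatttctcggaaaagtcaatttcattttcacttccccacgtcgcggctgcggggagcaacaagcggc
0610009L18Rik: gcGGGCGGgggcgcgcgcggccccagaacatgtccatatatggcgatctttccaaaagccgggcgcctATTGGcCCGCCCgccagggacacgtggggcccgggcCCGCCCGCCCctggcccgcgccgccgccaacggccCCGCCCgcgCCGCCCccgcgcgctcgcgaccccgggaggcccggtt
Gm9828: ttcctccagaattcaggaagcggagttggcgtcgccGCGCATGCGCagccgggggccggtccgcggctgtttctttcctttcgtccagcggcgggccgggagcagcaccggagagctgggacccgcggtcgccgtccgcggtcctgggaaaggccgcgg
The first 2 lines belong to the most abundant lncRNAs. A930037H05Rik, opposite Endov, is chr11:119491186-119491346 on the minus strand, with the RefSeq start of the lncRNA at base 112 and no motif match. 4632427E13Rik, opposite Rab30, is chr7:92741410-92741602 on the minus strand, with the lncRNA start at base 144 and 1 CCAAT. 2810013P06Rik, opposite Ankrd11, is chr8:123042325-123042624 on the plus strand and holds 4 CCAAT, 2 GGGCGG and 1 CCGGAAG. Its RefSeq start is at base 251, and the GENCODE start (123042466) lies 109 bases before that. Much of this stretch, with some of its motif matches, thus lies within the annotated lncRNA. B230354K17Rik, opposite Cdc5l, is chr17:45433738-45433880 on the plus strand, with the lncRNA start at base 94, and holds 1 CCAAT and 1 TGACGTCA. The outermost annotated start of this gene (45433598) lies before the stretch, so all of the stretch is within the annotated gene. Gm16675, opposite Irf2, is chr8:46739466-46739731 on the minus strand, with the lncRNA start at base 217, and holds 3 GGGCGG and 1 CCAAT. 0610009L18Rik, opposite Actg1, is chr11:120348543-120348727 on the plus strand, with the lncRNA start at base 136, and holds 6 GGGCGG and 1 CCAAT. Gm9828, opposite Btf3, is chr13:98317007-98317165 on the plus strand, with the lncRNA start at base 110, and holds 1 NRF1 motif. Its stretch also lies wholly within the annotated gene, whose outermost start is 98316422.

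The lncRNA windows were CpG-rich as a group. Their GC content had a median of 67.8% and a range of 44.3% to 79.0%, beside a median of 52.7% for all 32851 RefSeq windows. CpG observed over expected, the count of CpG relative to that given by the C and G content, had a median of 0.961 beside 0.384. A GC content of 50% or more with a CpG ratio of 0.6 or more was found in 26 of 30 windows (86.7%) and in 33.5% of all windows. Windows of 46 partner genes gave 67.0%, 0.878 and 91.3% for the same measures. They share part of their DNA with the lncRNA windows, so this is not separate evidence. The 60 usable windows of bidirectional lncRNAs below the level gave 67.3%, 0.854 and 80.0%.

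TATAAA was in 0 of 30 lncRNA windows and in 13.6% of all windows. GGGCGG was in 20 of 30 (66.7%) beside 35.7%, CCGGAAG in 8 (26.7%) beside 8.86%, and CCAAT in 12 (40.0%) beside 37.4%. TGACTCA and TGACGTCA were each in 2 windows (6.67%), beside 5.20% and 1.79%, the NRF1 motif was in 1 (3.33%) beside 0.971%, and the kappaB site in 0 beside 0.155%. Partner windows gave 2.17% for TATAAA, 69.6% for GGGCGG, 26.1% for CCGGAAG and 45.7% for CCAAT. The counts are over whole windows, including bases within partner exons that are not printed. They are matches of letters, and base composition was not taken into account. Whether a factor was bound was not measured.

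**Figure D3:**
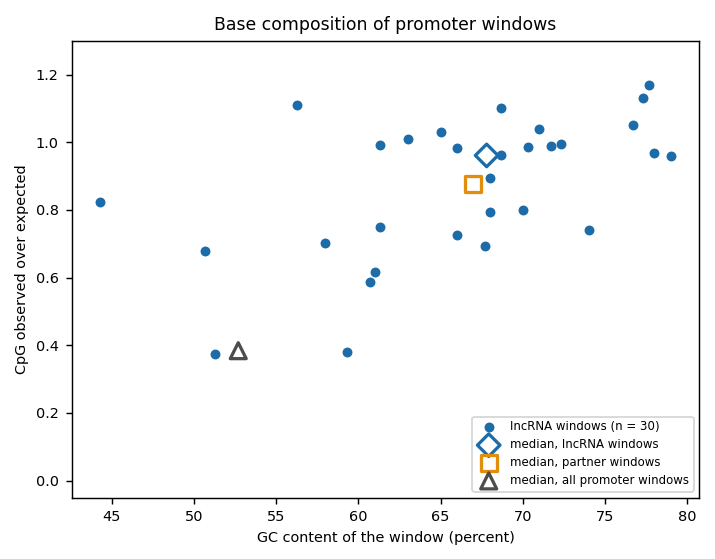
Each point is the promoter window of 1 of 30 lncRNAs, by GC content in percent and CpG observed over expected, and the open symbols are the medians of the lncRNA windows, of 46 partner windows and of all 32851 windows. The lncRNA median (67.8%, 0.961) lies close to the partner median (67.0%, 0.878) and above the median of all windows (52.7%, 0.384).

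A930037H05Rik was the most abundant of the 60 (ENSMUSG00000109408.1, chromosome 11, 119448788 to 119491298, minus strand, mm10). Its TPM was 54.4, 36.9 and 29.9 in replicates 1, 2 and 3, or 40.4 ± 12.6 (SD, n = 3), on 2866, 2494 and 1910 counts. It diverges from Endov, which codes for an endonuclease that cuts inosine-containing nucleic acid, with 49 bases between the starts. Endov had a TPM of 13.0, 7.53 and 6.47, so the lncRNA exceeded it in every library. By library-scaled CPM, which are CPM after edgeR's TMM scaling, the lncRNA was highest in replicate 1, with 185, 145 and 141, and Endov had 22.2, 18.8 and 22.5. Its most abundant transcript was a 1-exon retained_intron model of 4381 bases, with a TPM of 22.6, 18.2 and 13.2, and bidirectional transcripts held 51.0% of the gene's TPM. It runs into Rnf213, which codes for a large ubiquitin ligase on the opposite strand (119393100 to 119487418). Most of the span of the lncRNA lies within that gene, and 1476 of its 9082 exonic bases overlap Rnf213 exons. Rnf213 had a TPM of 370, 206 and 251, and its part in the counts of the lncRNA was not tested.

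4632427E13Rik was the next (ENSMUSG00000074024.5, chromosome 7, 92734166 to 92741468, minus strand). Its TPM was 17.2, 20.2 and 13.9, or 17.1 ± 3.19 (SD, n = 3), on 1307, 1833 and 1214 counts, and replicate 2 was the highest. Its exons overlap no annotated exon of the opposite strand. The partner Rab30 codes for a small GTPase of the Golgi and starts 135 bases away. Rab30 had 0, 5 and 0 counts in the gene tables, but a TPM of 0.948, 1.37 and 1.27 in the second transcript tables, so its near absence depends on the quantification. The lncRNA had 12.3, 16.0 and 12.7 in those tables and stood above Rab30 in both. How its reads were divided between 1-exon models was unstable: ENSMUST00000098305.3 had a TPM of 0, 8.86 and 0, and ENSMUST00000182578.1 had 5.84, 0.0100 and 6.27. The 2-exon model ENSMUST00000147198.2 had 11.2, 11.2 and 7.60.

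E230013L22Rik starts head to head with Rab20, the gene of a small GTPase of endosomes and phagosomes, with gene starts overlapping by 781 bases. Its TPM was 15.0, 6.67 and 3.63 in replicates 1, 2 and 3, or 8.43 ± 5.88 (SD, n = 3), and its counts were 351, 193 and 102. Rab20 had 10.5, 7.33 and 5.97. The lncRNA was thus above Rab20 in replicate 1 and below it in the other libraries, and the mean difference in log2(TPM + 1) was -0.08 ± 0.54 (SD, n = 3). In the second transcript tables the lncRNA had 13.9, 8.77 and 5.47 and Rab20 7.15, 5.81 and 5.82, so there the lncRNA was above in replicate 2 too. It also had the widest ratio between libraries of all lncRNAs with a mean of 10 or more counts, as described for the scaled counts.

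F730043M19Rik, which diverges from Atxn7l1 with 96 bases between the starts, had a TPM of 8.39, 7.96 and 4.96 beside 53.5, 48.6 and 40.2 for Atxn7l1. 4833418N02Rik had 6.80, 5.81 and 4.66 beside 42.1, 27.1 and 26.7 for Ttc7, which codes for a scaffold of a phosphatidylinositol kinase complex. A130014A01Rik had 6.12, 6.06 and 4.58 beside 11.3, 11.4 and 13.3 for Zdhhc7, a palmitoyltransferase gene. All 3 lncRNAs stayed below their partners in every library.

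9330151L19Rik had a TPM of 5.78, 6.55 and 5.20 on 192, 270 and 207 counts. Its nearest partner by start, the predicted gene Gm49383, is listed at 0 in all 3 gene tables, so no fold is given. The lncRNA also lies across the start of Dnaaf2, a dynein arm assembly factor gene, and shares 1107 of its 2545 exonic bases with Dnaaf2 exons. Dnaaf2 had a TPM of 1.95, 1.22 and 1.05 on 88.2, 68.8 and 57.0 counts, below the lncRNA in every library.

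5330438D12Rik shows how a short transcript model can carry a gene's TPM. Its TPM was 2.81, 2.07 and 11.4, or 5.43 ± 5.20 (SD, n = 3), while its counts were 59, 46 and 46. A lincRNA model of 282 bases, ENSMUST00000219210.1, had a TPM of 0.8, 0.81 and 10.5. The bidirectional transcript ENSMUST00000218139.1, of 2235 bases, had 2.01, 1.26 and 0.930. The high value in replicate 3 thus sits in the short model. Cnot2 had a TPM of 30.9, 28.4 and 21.2.

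In most pairs the protein-coding gene was the more abundant RNA. Partners were detected in 55 of 59 pairs (93.2%), beside 45.9% of all protein-coding genes and 87 of 144 partners (60.4%) of the bidirectional lncRNAs below the level. Partner TPM had a median of 22.0, 14.9 and 14.1 in replicates 1, 2 and 3, and 5.35, 4.42 and 3.47 for the partners of genes below the level. Of the 59 partners 35 stayed at a TPM of 10 or more throughout, beside 22.0% of all protein-coding genes. The lncRNA minus partner difference in log2(TPM + 1) had a median of -2.54, -2.37 and -2.52, or -2.47 ± 0.09 (SD, n = 3). The added 1 makes the fold of low genes look smaller. In 53 pairs the lncRNA was below the partner in all 3 libraries, in 22 of them by 10 times or more. In 3 it was above in all libraries and in 3 the order varied.

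Across the 59 pairs, Spearman's rank correlation between lncRNA and partner TPM was 0.14, 0.09 and 0.23 in replicates 1, 2 and 3. These are weak values over points that share a library, and 34 of the 60 lncRNAs overlap exons of an opposite gene. Within these selected pairs, the order of lncRNA levels followed that of partner levels only weakly. The selection by TPM had removed the lncRNAs of lowest level, and its part in the coefficients of this paragraph was not tested. The same coefficient between lncRNA TPM and main transcript length was 0.03, 0.20 and 0.12 (n = 60), and between lncRNA TPM and the distance of the starts -0.02, -0.10 and -0.08 (n = 59).

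**Figure D4:**
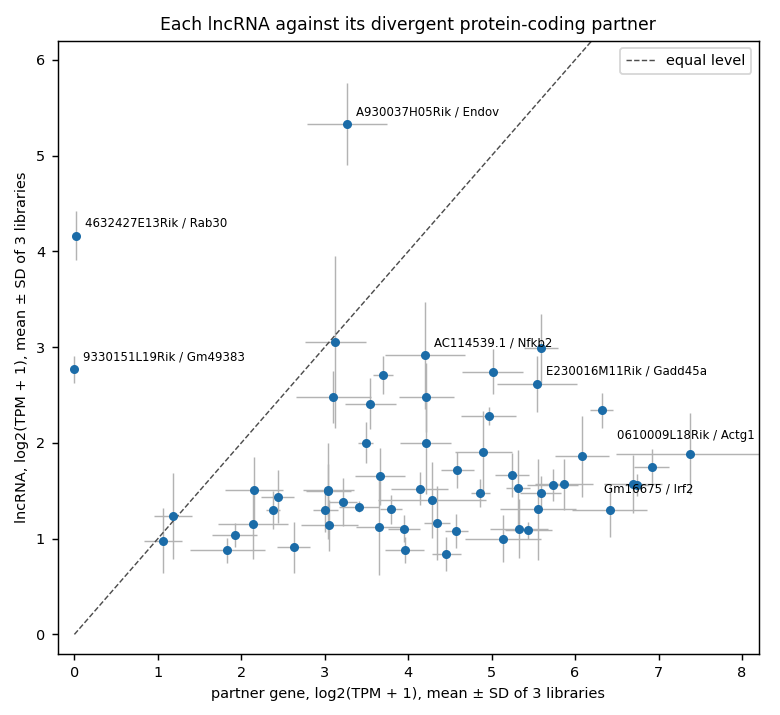
Each point is 1 of 59 pairs, with log2(TPM + 1) of the partner on the x axis and of the lncRNA on the y axis, as means with SD bars over 3 libraries, and the dashed line marks equal levels. Most points lie below the line, and the lncRNAs A930037H05Rik, 4632427E13Rik and 9330151L19Rik were above their partners in every library.

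The widest differences were at abundant partners. 0610009L18Rik diverges from Actg1, the gamma actin gene, and had a TPM of 3.41, 3.38 and 1.63 beside 255, 216 and 81.0, a mean log2 difference of -5.48 ± 0.47 (SD, n = 3). Both RNAs were lowest in replicate 3, though the lncRNA rests on 20, 23 and 11 counts. Gm45418 had 1.41, 2.65 and 1.97 beside 133, 97.9 and 82.5 for Ddx60, an interferon-induced helicase gene (-5.12 ± 0.58). CT025652.2 had 1.19, 2.06 and 1.21 beside 113, 86.8 and 60.7 for the ribosomal protein gene Rpl10a (-5.12 ± 0.51). At the other end, 6330408M09Rik and Rfc4, a clamp loader subunit gene, were both low in the gene tables, with 1.83, 1.82 and 0.640 beside 1.64, 0.930 and 1.29 (0.06 ± 0.52). In the second transcript tables Rfc4 had 10.7, 9.96 and 4.19 and the lncRNA 1.48, 1.53 and 1.08, so their near-equal level depends on the quantification.

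Of a list of macrophage, innate immune and signalling genes, 3 were partners: Nfkb2, Irf2 and Gadd45a. AC114539.1 lies head to head with Nfkb2, which codes for the NF-kB subunit p100 and its product p52 (AC114539.1 is ENSMUSG00000118087.1, chromosome 19, 46303591 to 46305611, minus strand). Its TPM was 10.7, 5.5 and 4.63 on 236, 150 and 122 counts, beside 25.3, 12.6 and 16.4 for Nfkb2, and both RNAs were highest in replicate 1. The gene starts overlap by 1291 bases, while the nearest transcript starts diverge by 85 bases. In exons, 531 of 1764 bases of AC114539.1 are shared with Nfkb2, and their part in the common order of the libraries was not tested.

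Gm16675 diverges from Irf2, an interferon regulatory factor gene, with 217 bases between the starts and no exonic overlap (ENSMUSG00000097534.3, chromosome 8, 46668808 to 46739515, minus strand). Its TPM was 2.91, 2.19 and 2.05 on 46, 43 and 39 counts, beside 138, 122 and 103 for Irf2, a mean log2 difference of -5.17 ± 0.09 (SD, n = 3). E230016M11Rik starts within Gadd45a, a stress response gene (ENSMUSG00000087231.7, chromosome 6, 67036599 to 67080654, plus strand). Its TPM was 5.10, 6.53 and 4.02 beside 62.6, 47.8 and 31.9 for Gadd45a, with a mean log2 difference of -2.93 ± 0.39 (SD, n = 3). Gadd45a was highest in replicate 1 and its lncRNA in replicate 2. The lowest library of the lncRNA depended on the scale: replicate 3 by TPM and replicate 1 by library-scaled CPM (8.52, 12.1 and 9.18). Bidirectional transcripts held 20.8% of the TPM of E230016M11Rik, and a 7-exon model of 2473 bases was the main one.

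Grouped by what the partner codes for, a grouping made with these values known, transcription and chromatin was the largest class with 14 pairs. The grouping was not made for other protein-coding genes, so the class sizes are a description only. All 14 partners were detected, at a median mean TPM of 21.5, and their lncRNAs had a median of 1.98 and a range of 0.840 to 7.10. They include the chromatin regulator Ankrd11 with 2810013P06Rik, the histone demethylase gene Kdm7a with Gm49041, the Sin3 complex gene Sap30 with 2500002B13Rik, the histone chaperone gene Daxx with BC051226 and the AP-1 repressor gene Jdp2 with Gm47863. Others were Atxn7l1, Ing2, Zfp787, Zmym5, Zfp410, Ctdp1, Spty2d1 and Banp. Gm47863 had a TPM of 0.930, 0.930 and 0.660 beside 4.01, 2.29 and 1.75 for Jdp2.

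Membrane traffic and cytoskeleton genes made up 12 pairs, of which 10 partners were detected, with a median lncRNA TPM of 2.50 and a median partner TPM of 23.8. Besides Rab30, Rab20, Ttc7 and Actg1 they are Rab11b, Lima1, Rai14, Pik3c2a, Sun2, Ap3b1, Aak1 and Cfap298. Immune and signalling genes made up 8 pairs, all detected, among them Nfkb2, Gadd45a, Irf2, Ddx60, the kinase gene Mok, the deubiquitinase gene Zranb1 and Deptor, an mTOR-binding inhibitor. Their lncRNAs had a median of 2.20, beside 33.4 for the partners.

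RNA and protein making accounted for 9 pairs, all detected, among them Endov, Cdc5l, Ptbp1, Cpsf2, Rpl10a, Smndc1, Btf3 and Polr3b, with a median lncRNA TPM of 1.75 and a median partner TPM of 14.7. Enzymes of lipids, sugars and other metabolites gave 8 pairs, all detected: Zdhhc7, Galnt7, Mmaa, Galnt4, Gphn, Sgms1, Dio2 and Fut8, with medians of 1.35 and 7.91. Chromosomes and cell division gave 6 pairs, of which 5 partners were detected: Wapl, Seh1l, Ncapg2, Incenp, Cep83 and Rfc4, with medians of 1.69 and 20.5. E130317F20Rik had a TPM of 1.93, 2.05 and 1.43 beside 55.3, 48.0 and 39.2 for the splicing regulator gene Ptbp1. 5830448L01Rik had 1.93, 1.85 and 2.82 beside 43.5, 34.1 and 33.5 for the cohesin release factor gene Wapl. The lncRNA was highest in replicate 3 on either scale, while Wapl was lowest there by TPM and highest by library-scaled CPM (175, 164 and 195). The remaining 2 pairs were those of Gm49383 and Fam219b.

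The main transcripts of the lncRNAs had few exons. The most abundant transcript had 1 exon in 27, 2 in 21 and 3 or more in 12 of the 60, and its length had a median of 1608 bases and a range of 282 to 6566. It was a retained_intron model in A930037H05Rik, E230016M11Rik, Gm49494 and 4930556M19Rik, the 282-base lincRNA model in 5330438D12Rik and a processed_transcript in Gm9920. For the 154 genes below the level the exon counts were 38, 59 and 57 and the median length 883 bases. Of those genes, 59 had 0 counts, so none of their transcripts was the most abundant. The selection used TPM, which divides by length, and a longer transcript gives more reads at the same level. Chromatin-fraction RNA also holds unspliced RNA, which a 1-exon model can collect, and its part in these values was not tested. A start supported by CAGE, a method that captures RNA 5′ ends, was recorded in the annotation for 12 of 60 genes and for 15 of the 154. The 60 genes lay on 14 chromosomes, with 10 each on chromosomes 8 and 12. None lay on chromosomes 1 to 5, where the annotation placed 3 of its 214 genes of this kind, so the map of the 60 follows the annotation.

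Exons on the opposite strand overlapped those of 34 of the 60 lncRNAs and of 53 of the 154 genes below the level. Exons on the same strand overlapped none of the 60 and 4 of the 154. In 9 of the 60 the opposite-strand overlap covered 25% or more of the lncRNA's exonic bases. The widest was at Gm47484, which shares 2121 of 3223 bases with Zfp410 and Ptgr2, and had 74.3, 154 and 64.9 counts in replicates 1, 2 and 3. The other 8 were 9330151L19Rik, Gm17251, AC114539.1, Gm45418, Gm48768, AC127256.1, Gm32031 and Gm27011. The use of strand in counting is not stated in these sources, which leaves values of these genes uncertain. The gene tables give an SD for the assignment of each count. Its mean over libraries was 9.48 counts for Gm47484, 5.25 for E230013L22Rik and 4.38 for A930037H05Rik, which all overlap opposite exons. It was 0 for F730043M19Rik, which has such overlap, and 0 for every lncRNA without it. What this SD says about the use of strand was not tested. Among the 26 pairs with no such overlap the median log2 difference from the partner was -2.90, and 4632427E13Rik was the only lncRNA above its partner in all libraries.

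The library with the highest level was most often replicate 2 for the lncRNAs and replicate 1 for their partners. For this count, CPM were scaled by edgeR's TMM factors, which set the libraries on a common scale, and genes with a mean of 10 or more counts were kept (54 lncRNAs, 51 pairs). Of 54 lncRNAs, 22 (40.7%) were highest in replicate 1, 26 (48.1%) in replicate 2 and 6 (11.1%) in replicate 3. The shares over all 15871 such genes were 36.9%, 32.7% and 30.5%. Of the 51 partners, 24 (47.1%), 5 (9.80%) and 22 (43.1%) were highest in replicates 1, 2 and 3, beside 41.3%, 27.8% and 30.9% of 11769 protein-coding genes. Replicate 2 was thus the most common highest library of the lncRNAs and the least common of their partners. In 20 of 51 pairs both genes were highest in the same library. The number that these shares alone would give was not computed, so the count is not read as agreement or its lack. Replicate 3 was the lowest for 19 of 54 lncRNAs, beside 27.7% of all genes. It was the lowest for 30 of 54 when CPM were scaled by total count alone, and the share over all genes was not made for that scaling.

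The ratio of lncRNA to partner was highest in replicate 2 in 28 of 51 pairs, in replicate 1 in 15 and in replicate 3 in 8, and it was lowest in replicate 3 in 26. These counts come from the same values as the shares above and are not a separate result. The same counts over other pairs of genes were not made. The median shift of the lncRNAs was small: log2 replicate 2 over replicate 3 was 0.15 for 54 lncRNAs, -0.10 for 51 partners and -0.02 for all genes. Replicate 1 over replicate 2 was -0.06, 0.11 and 0.01. With 1 library per RNA amount the order has no replicate of its own, and no test of it is possible. Replicate 2 was made from the smallest RNA amount, 250 ng, and the part of the amount in this order was not tested.

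**Figure D5:**
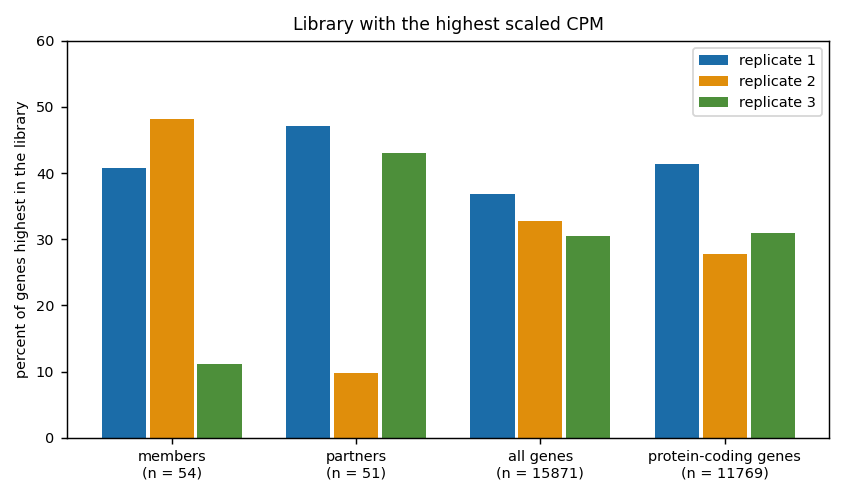
Bars give the percent of genes whose scaled CPM was highest in replicates 1, 2 and 3, for 54 lncRNAs, 51 partners, 15871 genes and 11769 protein-coding genes with a mean of 10 or more counts. Replicate 2 is highest for 48.1% of the lncRNAs and 9.80% of the partners.

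The spread of single lncRNAs between libraries was set beside that of all genes. The highest library exceeded the lowest by a median of 1.42 times for 54 lncRNAs and 1.33 times for all genes, and among genes with mean counts of 10 to 100 by 1.49 times (40 lncRNAs) and 1.57 times (6114 genes). A ratio of 2 or more was found in 6 of 54 lncRNAs and in 11.3% of all genes. The widest were E230013L22Rik with 3.01, Gm26910 with 2.71, Gm9828 with 2.46, 6330408M09Rik with 2.28, Gm49041 with 2.03 and Gm36371 with 2.02. Gm26910, which starts 19 bases from the nucleoporin gene Seh1l, had 22, 9 and 13 counts. Gm9828, at Btf3, had 24.2, 10.9 and 9 counts. Gm49041, at Kdm7a, had 21, 19 and 9 counts. Of these 6, all but 6330408M09Rik were highest in replicate 1, and all but E230013L22Rik had 53 counts or fewer in every library.

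The steadiest were Gm9776 with a ratio of 1.07, 2810013P06Rik with 1.09 and 4833418N02Rik with 1.10. 2810013P06Rik, at Ankrd11, had 7.98, 8.66 and 8.2 scaled CPM, beside 365, 394 and 448 for Ankrd11. Gm9776, at Ap3b1, which codes for a subunit of the AP-3 vesicle adaptor, had 2.77, 2.91 and 2.96. 4833418N02Rik had 8.44, 7.79 and 7.68, beside 122, 79.3 and 101 for Ttc7.

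The second transcript tables, made directly from the reads, gave higher values for many of these genes. In them 59 of the 60 lncRNAs and 58 of the 154 others passed the selection level of 0.5 TPM, 117 in total. The 5 genes with the widest difference between tables were AC132253.4, 2500002B13Rik, AC133451.1, 5330438D12Rik and Gm49494. AC132253.4, at the chromosomal passenger gene Incenp, had a TPM of 2.70, 1.24 and 0.820 on 11, 4 and 5 counts in the gene tables and 24.1, 26.1 and 21.8 in the second tables. 2500002B13Rik had 1.02, 1.25 and 0.9 beside 7.0, 12.9 and 11.6. Its partner Sap30 had 3.41, 2.98 and 2.08 in the gene tables and 3.78, 2.83 and 3.13 in the second, so the lncRNA was below Sap30 in the first and above it in the second. AC133451.1, at the splicing factor gene Smndc1, had 1.67, 1.75 and 1.04 beside 11.7, 12.3 and 13.6.

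Gm49494, at the actin-binding protein gene Lima1, had 4.24, 3.71 and 3.67 in the gene tables and 26.1, 14.4 and 13.5 in the second. In the first transcript tables, bidirectional transcripts held 7.41% of the TPM of Gm49494, and a 1-exon retained_intron model held 92.6%. For 5330438D12Rik the second tables gave 19.8, 16.6 and 22.3. All 5 were higher in the second tables in every library. The levels of these 5 genes depend on how reads were assigned, while A930037H05Rik had 41.0, 33.3 and 28.2 and was the most abundant of the 60 there too. 4632427E13Rik, second in the gene tables, had 12.3, 16.0 and 12.7 there, below AC132253.4 and 5330438D12Rik in every library.

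The machinery known to end and degrade upstream RNAs was present. Of a list of 50 genes, 49 were detected, beside 45.9% of all protein-coding genes. The list holds the RNA exosome, NEXT and PAXT, cap-binding proteins, Integrator, U1 snRNP proteins and cleavage and termination factors. Zfc3h1, the scaffold of PAXT, had a TPM of 124, 113 and 130, and Zcchc8, the scaffold of NEXT, 63.3, 53.3 and 45.9. The helicase gene Mtrex, shared by both, had 26.8, 23.3 and 21.3. The exosome nuclease gene Exosc10 had 24.1, 21.1 and 17.6, and Dis3 9.20, 8.41 and 8.37. Exosc6 is listed at 0 in every library of both quantifications. Snrnp70, a U1 snRNP protein gene, had 317, 210 and 209, and the termination factor gene Pcf11 74.7, 58.0 and 54.6. Medians by complex ran from 9.20, 8.41 and 8.37 for the 13 exosome genes to 45.0, 39.1 and 33.6 for the 6 genes of NEXT and PAXT. These are levels of chromatin-fraction RNA and not of the proteins.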

How the data were processed

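Chromatin-fraction RNA of 3 libraries of 1 group was analysed. For each library the authors deposited a gene table and 2 transcript tables. Per the file headers, gene tables give for each gene its estimated count, TPM and an assignment SD of that count. The first transcript tables add, per the file headers, the percent of a gene's level held by each transcript. Per the deposited readme files, the second transcript tables list estimated counts and TPM made from reads and an index, on mm10 and GENCODE M21. Programs and strand use in counting: not given in the sources used here. Rows that name no annotated gene (1.16%, 0.459% and 0.351% of counts) were left out.

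Genes were placed, typed and paired with the GENCODE M21 annotation (coordinates count from 1), using Python 3.11.15, pandas 2.3.3 and numpy 2.4.6. The lncRNA minus partner difference used log2(TPM + 1), a pseudocount of 1. Estimated counts were rounded and scaled with TMM factors of edgeR 4.0.16 in R 4.3.3, with DESeq2 1.42.0 size factors as an alternative. The scaling was checked on simulated data. With 1 group there was no comparison to test, and values are means ± SD over 3 libraries.

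Genes were named by rule: the 10 highest by TPM, the 5 highest and 5 lowest lncRNA minus partner differences, partners on an immune gene list, the 3 genes on either side of the selection level, the 5 widest and 3 narrowest ratios between libraries, and the 5 widest differences between tables. The lncRNAs, the lists and these rules were chosen with earlier results of these data known, and genes named outside the rule were chosen after their values were seen. A few pairs that the rule or the groups would name are not reported here. Promoter sequences are from RefSeq, GRCm38.p6. A planned count of polyadenylation signals and splice donor motifs downstream of the starts was not run, since no genome sequence was used here. The limits given for 0 counts cover counting error only, because no molecular identifiers mark repeated reads of one molecule.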

Additional observations from a re-analysis of the deposited data

How the results depend on the processing

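No test was made, so each alternative is compared by its value. With the second transcript quantification the number of lncRNAs past the selection level was 117, against 60, the median TPM of the 60 was 3.18, against 1.92, and the median log2 difference from the partner was -2.32, against -2.47. With TPM rescaled without RNAs under 200 bases the median TPM was 3.41, and 80 of the 214 genes passed the selection level. Of the 60, 51 had at least 10 counts in all libraries. The log2 difference was -2.86 with a pseudocount of 0.1, -2.66 with 0.5, -3.41 for log2(CPM + 1), -2.60 for pairs whose partner had a TPM of 1 or more, and -2.90 for 26 pairs with no exonic overlap on the opposite strand, an alternative added after seeing the data. Among those 26, 1 lncRNA exceeded its partner, against 3 of 59. With a mean of 50 or more counts, 8 of 27 lncRNAs were highest in replicate 1 and 6 were lowest in replicate 3 (22 and 19 of 54 with a mean of 10 or more), and with total count alone 30 of 54 were lowest in replicate 3. The shares over all genes were not made for these settings. Leaving out 1 library at a time gave 63 to 75 lncRNAs, a median TPM of 1.79 to 2.08, a difference of -2.53 to -2.44, 55 to 56 detected partners and 3 to 4 lncRNAs above their partner. The cause of these shifts was not tested. No paired analysis was possible because there was 1 group. Of the 60 lncRNAs, 6 had a mean count under 10, and the order of their libraries was not read.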

Other observations

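Some further pairs also had a small difference between lncRNA and partner. Gm17251 had a TPM of 5.90, 4.11 and 3.92 in replicates 1, 2 and 3, beside 11.2, 6.75 and 5.69 for Rab11b, a small GTPase gene of recycling endosomes, with 329 of 925 exonic bases overlapping Rab11b. 4921507G05Rik had 2.36, 2.15 and 1.16 beside 4.55, 3.56 and 2.44 for the kinase gene Mok. 4930534H18Rik had 0.770, 1.58 and 0.670 beside 1.14, 1.40 and 0.760 for Cfap298, on 5, 12 and 5 counts.

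Values of 3 further pairs follow. Gm26631 had a TPM of 4.52, 5.23 and 3.34 beside 12.9, 11.4 and 8.22 for Fam219b. Cep83os, the longest main transcript of the 60 at 6566 bases, had 1.57, 1.68 and 1.19 on 142, 190 and 130 counts, beside 14.2, 12.8 and 11.7 for the centrosome gene Cep83. Gm16576 had 1.78, 2.27 and 1.60 on 131, 210 and 142 counts, beside 22.1, 14.8 and 13.9 for Sun2, a nuclear envelope gene.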
